A study of Mus musculus with 4 samples.

Results

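Mucous neck cells of the mouse stomach are described here. They are the 1121 of 4449 single cells that the deposited annotation places in cluster 0. The membership was taken from that annotation as it stands, and raw counts of unique molecular identifiers (UMIs, 1 for each captured RNA molecule) were summed over these cells in each library. The cells came from 14-week-old Rosa26iH2b-GFP females, in which doxycycline switches on a histone H2b-GFP fusion through a Tet-on 3G activator that is expressed without cell type restriction from the same locus. Doxycycline was given for 4 weeks and withdrawn for 6 weeks, so that a cell keeps the label only if it has divided little. Both sorts share this genotype and treatment: GFP+ libraries hold Epcam-positive cells that still carried the label, and Epcam+ libraries (labelled Ep+) hold Epcam-positive cells taken without regard to GFP. There were 2 libraries of each, and sorted cells of 2 females, freed of Cd45- and Cd31-positive cells, were combined for capture. Nothing states that the libraries came from separate animals, so each p-value below measures the spread between libraries, which may be technical.

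Mucous neck cells lie between the isthmus, where corpus gland cells divide, and the chief cells of the gland base. They secrete the gland mucin Muc6 and the trefoil peptide Tff2, and in the mouse they are regarded as the cells from which chief cells form as they move down the gland. Their mucus is built in steps. The protein backbone is folded in the endoplasmic reticulum with the help of disulfide isomerases, sugar chains are begun and extended on serine and threonine in the Golgi, and the chains of gland mucin are capped with N-acetylglucosamine in an alpha-1,4 link, which pit cell mucin lacks.

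Cluster 0 held 116 of 467 cells in GFP+ 1, 68 of 444 in GFP+ 2, 441 of 1642 in Epcam+ 1 and 496 of 1896 in Epcam+ 2. The median depth of these cells was 34587 and 31133 UMIs in the GFP+ libraries and 24843 and 21521 UMIs in the Epcam+ libraries. GFP+ 2 stands apart as a library, with a median of 104840 UMIs over all its cells against 31735 to 45119 in the other 3, but not within cluster 0. The median mitochondrial share in cluster 0 was 6.12% to 7.65%. Of the cells of cluster 0, 2 were called doublets, and 2 barcodes in it occurred in more than 1 library.

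The label was checked first against the 4 genes that name it (levels in CPM, the UMIs of a gene in a sum scaled to the same total in each). Muc6 was at 8392 and 5330 CPM in the GFP+ libraries and at 6068 and 3552 CPM in the Epcam+ libraries. The lowest of these lies above the highest value of any other cluster, which was 1600 CPM in cluster 5. Pga5, a pepsinogen A precursor, averaged 2502 ± 833 CPM in cluster 0 (SD, n = 4 libraries), and the next highest mean was 822 ± 314 CPM in cluster 5. The other 2 genes were not highest here. Tff2 averaged 24816 ± 13724 CPM in cluster 0, against 31992 ± 3800 CPM in isthmus cluster 3 (n = 2 libraries) and 20650 ± 6300 CPM in pit cluster 2. The 4 libraries of cluster 0 overlapped with those of both clusters. Gkn3, a gastrokine, averaged 3264 ± 2326 CPM in neck cells, against 4683 ± 3204 CPM in chief cluster 5, again with overlapping libraries.

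**Figure D1:**
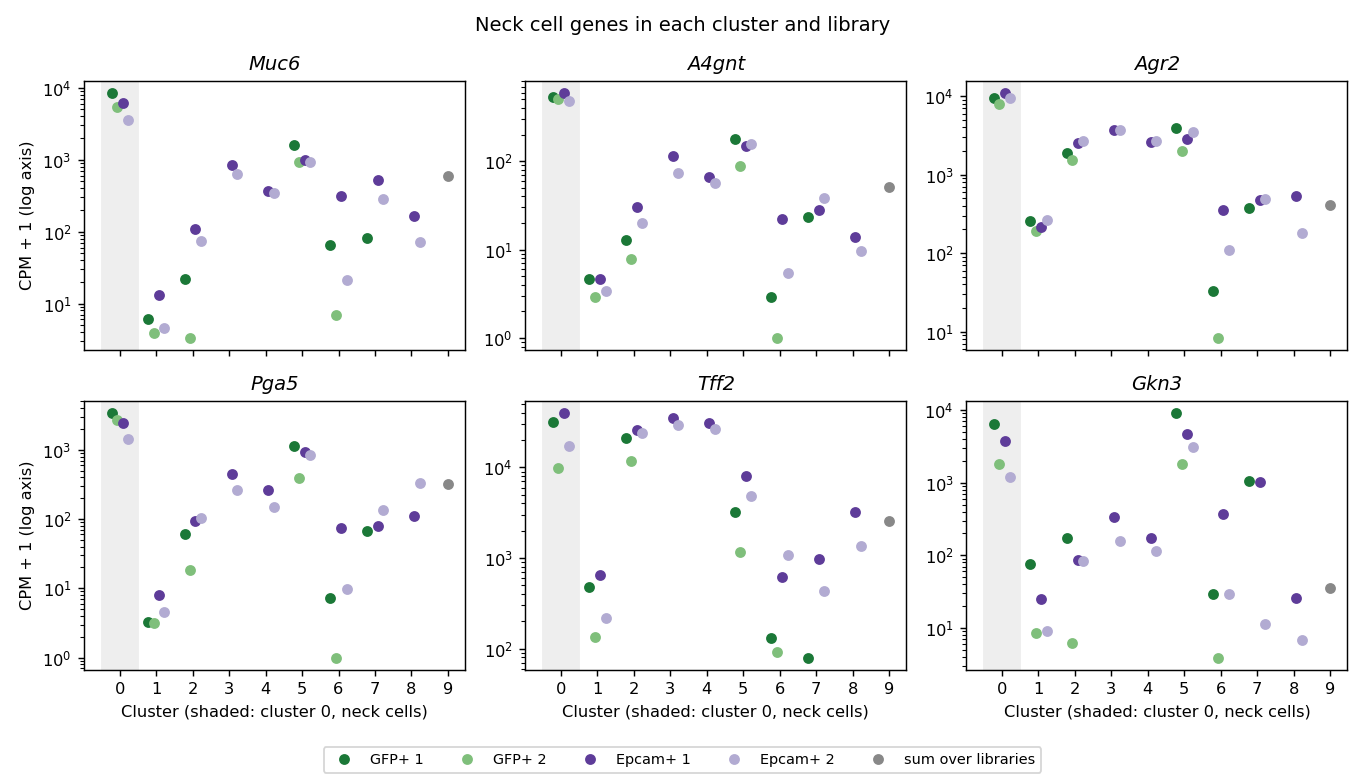
Levels of 6 neck cell genes in the 10 clusters (x axis, cluster 0 shaded) on a log axis of CPM + 1; each point is a library with at least 20 cells of the cluster, and cluster 9 is 1 sum over libraries. Muc6, A4gnt and Agr2 lie above all other clusters in each library, Tff2 is as high in clusters 2 to 4, and Gkn3 is as high in cluster 5.

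Markers of pit, dividing, squamous, stromal, tuft and parietal cells were low in cluster 0. Of the chief cell markers, Chia1 was low, and Clps, Pla2g1b and Cblif were not. Of the pit markers, Muc5ac averaged 13.4 ± 16.2 CPM, Gkn1 42.8 ± 29.2 CPM and Gkn2 38.5 ± 25.5 CPM. Tff1 was the highest of them, at 134 ± 119 CPM against 70160 ± 20420 CPM in pit cluster 2. Of the division markers, Mki67 averaged 9.76 ± 4.01 CPM, Top2a 2.43 ± 0.986 CPM, Stmn1 27.8 ± 6.76 CPM and Mcm6 16.6 ± 2.83 CPM. Krt14, Trp63 and Col3a1 were at 0, Dclk1 and Trpm5 reached at most 0.465 CPM, and the acid pump gene Atp4a averaged 9.13 ± 4.39 CPM. Epcam, the surface protein used for the sort, was between 660 and 892 CPM in the 4 libraries. Of the chief cell genes, the mean of Clps was 9588 ± 3874 CPM and that of Pla2g1b 8892 ± 2525 CPM, both above the mean of Muc6, and Cblif averaged 1275 CPM. In chief cluster 1 the means were far higher for Clps (365900 CPM) and Pla2g1b (261800 CPM), and 4159 CPM for Cblif. Chia1 averaged 71.4 ± 12.7 CPM in cluster 0, against 15560 ± 3383 CPM in chief cluster 1 and 176 ± 252 CPM in pit cluster 2. Pgc, the pepsinogen C gene that chief cells share, was the most abundant RNA. It held 19.2% and 16.9% of the UMIs of cluster 0 in GFP+ libraries and 13.5% and 11.7% in Epcam+ libraries, against 0.458% to 1.01% in pit cells.

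To find the genes that set neck cells apart, a gene was counted where its lowest library in cluster 0 lay above its highest library in each other cluster. This had to hold on unscaled CPM and on CPM scaled by trimmed means (TMM). Both were required because 3 secretory genes fill most of the RNA of chief cells and lower the CPM of every other gene there. The clusters were made from these genes, so the counts are a description and no test was made. The rule took 52 of the 2367 genes with a mean of at least 50 CPM (2.20%). By the same rule 573 of 2813 genes (20.4%) were counted in parietal cluster 8 and 176 of 2343 (7.51%) in pit cluster 2. The counts were 7 of 409 (1.71%) in chief cluster 1 and 1 of 1168 (0.0856%) in chief cluster 5. Parietal cells entered with 2 libraries and neck cells with 4, and fewer libraries make the rule easier to pass. None of the 52 was more than 10 times higher than in the next cluster. On unscaled CPM, 13 of the 52 were 2 to 10 times higher, 39 were less than 2 times higher, and the median ratio was 1.58. On TMM-scaled CPM only 4 were at least 2 times higher, and the median was 1.44. Which cluster came next depended on the scale: on unscaled CPM it was isthmus cluster 3 for 29 of the 52 and chief cluster 5 for 3, and on TMM-scaled CPM cluster 3 for 18 and cluster 5 for 21. On unscaled CPM alone the count was 135 genes, and in the Epcam+ libraries alone it was 96. Without the cells called doublets it was 48, of which 44 were among the 52.

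The mucin and the enzymes of its sugar chains led the list. Muc6 was 5.26 times higher than in cluster 5 on unscaled CPM and 2.74 times higher on TMM-scaled CPM. Without the cells called doublets the unscaled ratio was 3.91. A4gnt, which adds the alpha-1,4-linked N-acetylglucosamine cap, had 536 and 504 CPM in GFP+ libraries and 587 and 484 CPM in Epcam+ libraries. Its next cluster was again cluster 5, at 143 ± 38.5 CPM, a ratio of 3.69 on unscaled and 1.92 on TMM-scaled CPM. Gfpt1, the rate-limiting enzyme that makes the hexosamine units for such chains, averaged 689 ± 47.2 CPM, 2.77 times the next value on unscaled CPM, that of the small cluster 9, and 1.49 times on TMM-scaled CPM. A4gnt and Gfpt1 were steadier over the 4 libraries than Muc6, which ranged between 3552 and 8392 CPM.

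The promoters of these 3 genes are shown because they head the list and, as described further on, their RNAs also went together from cell to cell. Each line gives the 250 bases before the RefSeq start on the strand of the gene (build GRCm38.p6), with 1 motif match in capitals. Muc6 lies on chromosome 7 (141633456 to 141655319), A4gnt on chromosome 9 (99612502 to 99622367) and Gfpt1 on chromosome 6 (87042846 to 87092197), all protein-coding genes in GENCODE vM21 on GRCm38. The printed stretches are chr7:141655394-141655643 on the minus strand for Muc6, chr9:99612252-99612501 on the plus strand for A4gnt and chr6:87042596-87042845 on the plus strand for Gfpt1.
Muc6: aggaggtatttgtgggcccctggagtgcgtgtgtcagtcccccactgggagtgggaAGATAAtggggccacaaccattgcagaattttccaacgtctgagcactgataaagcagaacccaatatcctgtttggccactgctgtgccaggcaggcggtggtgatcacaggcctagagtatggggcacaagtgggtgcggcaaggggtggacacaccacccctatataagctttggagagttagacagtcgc
A4gnt: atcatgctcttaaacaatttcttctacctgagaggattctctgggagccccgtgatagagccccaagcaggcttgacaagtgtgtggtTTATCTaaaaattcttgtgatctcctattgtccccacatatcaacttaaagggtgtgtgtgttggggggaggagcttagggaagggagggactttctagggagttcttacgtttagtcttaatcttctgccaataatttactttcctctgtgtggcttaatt
Gfpt1: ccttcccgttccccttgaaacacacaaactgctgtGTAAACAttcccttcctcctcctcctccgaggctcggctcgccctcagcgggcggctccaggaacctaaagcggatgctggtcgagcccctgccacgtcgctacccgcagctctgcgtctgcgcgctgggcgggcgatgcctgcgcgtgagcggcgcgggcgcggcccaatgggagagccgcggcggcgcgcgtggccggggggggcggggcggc
The capitals in Muc6 mark AGATAA, a form of the GATA factor motif, which begins 194 bases before the start. In A4gnt they mark its reverse complement, 162 bases before the start. In Gfpt1 they mark the reverse complement of TGTTTAC, a forkhead motif, 215 bases before the start. Other forms of these motifs were not marked. The RefSeq start of Muc6 lies upstream of the GENCODE gene, and the bases just after that start matched no GENCODE transcript of Muc6. A match is a run of letters and not a shown binding site. On either strand and in the window that also takes in 50 bases after the start, AGATAA lay in 3 of the 36 promoters found for the 52 genes (8.33%) and in 12.7% of all 27025 promoters. TGTTTAC lay in 3 of the 36 (8.33%) and in 4.05% of all. TATAAA was found in 16.7% of the 36 and 15.7% of all, and CAGCTG in 8.33% and 18.3%.

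Enzymes that begin and extend mucin sugar chains were often highest in neck cells. Of 35 genes on this list, 33 were in the files and 14 had a mean of at least 50 CPM in cluster 0. Of those 14, 10 had their highest mean in cluster 0 on unscaled CPM, where the share over all genes at that level was 12.3%, and 8 had it on both scales, where that share was 6.89%. The rule of the 52 genes was passed by 5. Besides A4gnt these were Galnt7, Galnt4 and Galnt12, which attach N-acetylgalactosamine to start or extend the first layer of a chain, and the galactosyltransferase B4galt1. Galnt7 averaged 415 ± 33.0 CPM in cluster 0 against 259 ± 2.77 CPM in isthmus cluster 3. B4galt1 was close to its neighbour, at 93.8 ± 6.38 CPM against 75.1 ± 3.79 CPM in cluster 3. Gcnt3, which makes branched core structures, was at 1.06 times the highest other mean on unscaled CPM but at 0.985 times on TMM-scaled CPM, so that its order depends on the scaling.

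**Figure D2:**
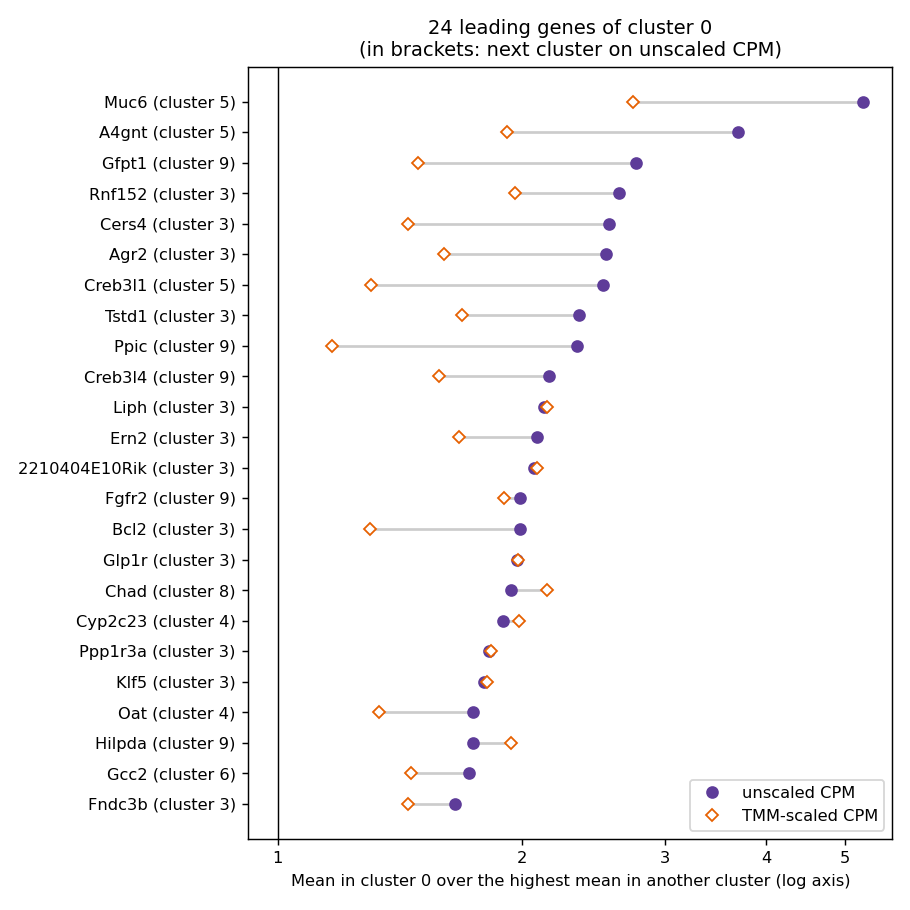
Mean level in cluster 0 divided by the highest mean in another cluster (log axis) for the 24 leading genes, on unscaled CPM (filled) and TMM-scaled CPM (open); the next cluster is named in brackets. Muc6 leads with 5.26 and 2.74, and all 24 lie above 1 on both scales.

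Genes of protein folding and of secretory cell identity formed the next set. Agr2, a disulfide isomerase of the endoplasmic reticulum that mucins need for folding, had 9478 and 7973 CPM in GFP+ libraries and 10855 and 9408 CPM in Epcam+ libraries. The next cluster, isthmus cluster 3, had 3717 ± 2.01 CPM (n = 2 libraries), so that Agr2 was 2.54 times higher here, and 1.60 times on TMM-scaled CPM. Creb3l1 and Creb3l4, transcription factors that are released from the endoplasmic reticulum membrane, averaged 325 ± 23.0 and 244 ± 22.1 CPM and were 2.52 and 2.16 times higher than in the next clusters on unscaled CPM and 1.30 and 1.58 times on TMM-scaled CPM. Ern2, the folding stress sensor of mucus-making epithelia, averaged 174 ± 5.57 CPM and was 2.08 times higher than in cluster 3 (1.67 times on TMM-scaled CPM). Of the 35 genes on the list of folding and mucin assembly, 27 had a mean of at least 50 CPM, 13 of these had their highest mean in cluster 0 on unscaled CPM (12.3% of all genes at that level) and 6 on both scales (6.89% of all). The general folding genes Manf, Pdia6, P4hb and Ppib were among the 7 that were highest on unscaled CPM only. The rule of the 52 genes was passed by 5 of the 27 (2.20% of all), the other one being the disulfide reductase Dnajc10. The general chaperone Hspa5 was not among them: it averaged 1936 ± 340 CPM in cluster 0 and 2112 ± 96.0 CPM in mitotic isthmus cluster 4 (n = 2 libraries). Xbp1, the transcription factor of the unfolded protein response, was between 599 and 606 CPM in the 4 libraries. It was 1.28 times the highest other mean on unscaled CPM and 0.409 times on TMM-scaled CPM.

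The rest of the 24 leading genes have less to do with mucus. Glp1r, the receptor of the gut hormone GLP-1, had 147 and 170 CPM in GFP+ libraries and 214 and 229 CPM in Epcam+ libraries, 1.97 times the mean of cluster 3. Fgfr2, a fibroblast growth factor receptor, averaged 51.0 ± 11.1 CPM, just above the minimum of 50 CPM. Bcl2, which inhibits apoptosis, averaged 60.8 ± 7.74 CPM and was 1.99 times higher than in cluster 3 on unscaled and 1.30 times on TMM-scaled CPM. Klf5, a zinc finger transcription factor of gut epithelia, averaged 674 ± 71.7 CPM, 1.80 times the mean of cluster 3. Rnf152, a ubiquitin ligase of the lysosome, and Cers4, a ceramide synthase, were 2.63 and 2.56 times higher than in cluster 3 on unscaled CPM and 1.96 and 1.45 times above the next cluster on TMM-scaled CPM. Others were the lipases and lipid genes Liph and Hilpda, the epoxygenase Cyp2c23, the glycogen-targeting phosphatase subunit Ppp1r3a, the ornithine aminotransferase gene Oat, the extracellular matrix protein gene Chad, the cyclophilin gene Ppic, the Golgi tethering gene Gcc2, and Tstd1, Fndc3b and 2210404E10Rik. Their ratios lay between 1.66 (Fndc3b) and 2.35 (Tstd1) on unscaled CPM.

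Genes that neck cells shared with just 1 other cluster were few. Muc6, Spdef, Aqp5 and Klk1 were higher in cluster 0 and in chief cluster 5 than in any library of the other 8 clusters, on both scales. Spdef, a transcription factor of mucus-secreting cells, averaged 223 ± 49.6 CPM in neck cells, against 79.7 ± 8.37 CPM in cluster 5. The water channel gene Aqp5 averaged 216 ± 58.4 CPM in neck cells, against 152 ± 71.4 CPM in cluster 5, with overlapping libraries, and on TMM-scaled CPM cluster 0 was at 0.749 times the highest other mean. With isthmus cluster 3 the shared genes were 6, namely Fam3c, 2210404E10Rik, Erlin1, Nfib, Glp1r and Fkbp9. With parietal cluster 8 they were also 6, namely Atp1b1, Hadh, Mfsd4a, Fzd4, Clybl and Prdm16. Clusters 2, 4, 6 and 9 shared 2 genes each with neck cells. No gene was shared in this way with chief cluster 1 or with cluster 7. No gene was lower in cluster 0 than in each of the other clusters.

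The lists of other lineages and states gave the contrast. No pit, chief or proliferation gene had its highest mean in cluster 0, with 10, 9 and 2 members at 50 CPM or more. Of 18 gastric lineage transcription factors 8 were highest here on unscaled CPM and 6 on both scales. Of 18 immediate-early genes 8 were highest on unscaled CPM but 3 on both scales, of 14 cytosolic heat shock genes 3 and 1, and of 10 integrated stress response targets of Atf4 2 and 1. The shares over all genes were 12.3% on unscaled CPM and 6.89% on both scales. Hbegf, Hes1 and Spry1 were the 3 genes of the EGF and Notch list above 50 CPM, and each had its highest mean in cluster 0 on unscaled CPM. Hes1 was 0.958 times the next cluster on TMM-scaled CPM. Among the mucosal defence genes, the complement regulator Cfi averaged 708 ± 93.9 CPM in cluster 0 against 322 ± 68.2 CPM in cluster 5, 2.20 times on unscaled and 1.13 times on TMM-scaled CPM.

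Shares of cells were read after each cell had been thinned to 16880 UMIs, which left out 149 shallower cells of cluster 0 (14 and 7 in GFP+ libraries, 56 and 72 in Epcam+ libraries). A Muc6 UMI was found in 99.9% ± 0.118 of neck cells (SD, n = 4 libraries), against 23.8% ± 11.9 of pit cells, which do not make this mucin and so give the background. Sox9, a transcription factor of progenitor and secretory cells, was detected in 97.2% ± 0.654 of neck cells and in 65.1% ± 13.0 of pit cells. Other clusters were closer to neck cells: 81.2% ± 2.52 in chief cluster 5, and 81.2% ± 0.82 and 80.0% ± 4.4 in isthmus clusters 3 and 4 (n = 2 libraries each). A UMI of Mki67 or Top2a was seen in 10.9% ± 2.03 of neck cells, which is below the 24.1% ± 6.19 of pit cells and far below the 98.6% ± 0.487 of cluster 4 (n = 2 libraries). It was above the 1.26% ± 0.469 of chief cluster 1 and the 6.60% ± 1.79 of chief cluster 5 (n = 4 libraries each). This level of neck cells is read neither as division nor as its absence, and whether neck cells divide was not tested. Lgr5, a Wnt target and stem cell marker, was found in 5.99% ± 2.05 of neck cells, 30.5% ± 13.3 of cluster 5 cells and 0.0716% ± 0.143 of pit cells. Without thinning, the shares in neck cells were 13.6% for Mki67 or Top2a and 9.41% for Lgr5.

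Within cluster 0, the genes that name the cells differed in how evenly they were spread. Agr2 and Pgc were even: the 90th percentile of cells lay 3.33 to 4.56 times above the 10th for Agr2, and 2.51 to 3.73 times for Pgc. Muc6 was spread 8.01- to 10.9-fold. Tff2 was spread 69.7-fold to 201-fold in 3 libraries, and in GFP+ 2 the 10th percentile was 0. Gkn3 was not detected in many neck cells. At equal depth a UMI of it was found in 65.3% ± 21.3 of them, against 27.7% ± 14.8 of pit cells. It had no UMI in 12.9% and 41.2% of them in GFP+ libraries and in 21.8% and 57.3% in Epcam+ libraries, although its 90th percentile reached 15330 and 7761 CPM in GFP+ libraries and 10980 and 3679 CPM in Epcam+ libraries.

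**Figure D3:**
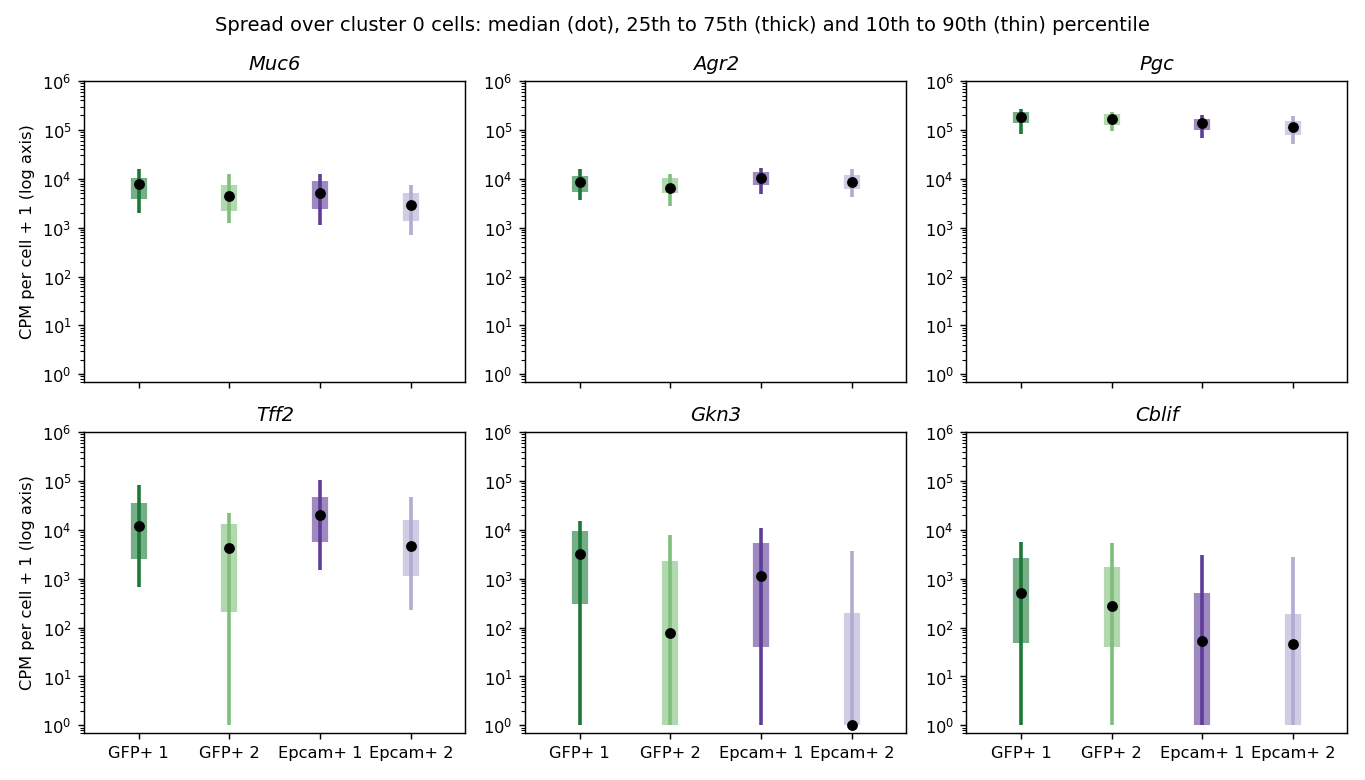
Spread of 6 genes over the neck cells of each library, as CPM per cell + 1 on a log axis; dots are medians, thick bars the 25th to 75th and thin bars the 10th to 90th percentile. Agr2 and Pgc are narrow, Tff2 spans about 2 orders of magnitude, and Gkn3 and Cblif reach down to 0 in each library.

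Replicate 1 of each sort lay above replicate 2 for several of these genes. Tff2 was at 32031 and 9845 CPM in GFP+ 1 and GFP+ 2 and at 40070 and 17317 CPM in Epcam+ 1 and Epcam+ 2. Gkn3 was at 6356 and 1801 CPM in the GFP+ libraries and at 3713 and 1184 CPM in the Epcam+ libraries. Both replicate 1 libraries were thus above both replicate 2 libraries for these genes, also for Muc6. The labels name no batch that goes with the replicate number, and its part in these values was not tested.

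Over the cells of a library, Muc6 RNA went most closely with Gfpt1, A4gnt and Galnt7 among the genes detected widely enough to be ranked. Spearman's rho with Muc6 was computed within each library for the 3370 other genes with a UMI in at least 50% of neck cells of each library. These are descriptions without a p-value, since the cells of a library share that library and its base composition, and each cell's values share 1 total. Gfpt1 ranked first, with rho = 0.606 and 0.718 in GFP+ libraries and 0.678 and 0.681 in Epcam+ libraries. A4gnt followed (0.411 to 0.633), then Galnt7 (0.473 to 0.602), Cgref1 (0.431 to 0.629), Agr2 (0.448 to 0.568) and Rrbp1, a ribosome receptor of the endoplasmic reticulum (0.280 to 0.573). The label gene Gkn3 was detected in too few cells of Epcam+ 2 to be ranked. Its rho with Muc6 was 0.408 to 0.529, close to that of Galnt7. In all, 15 of the 3370 genes had rho over 0.3 in each library, and 8 of them did when cells were thinned to 16880 UMIs. Of 18 mucin glycosylation genes 8 had a positive rho in each library, and of 29 folding genes also 8 (27.6%), against 14.4% of all genes. The median rho of these lists was 0.049 and 0.00981, against -0.0422 over all genes. Depth per cell did not go with Muc6, with rho = -0.0978 to 0.159, and Gfpt1 stayed at 0.59 to 0.68 after thinning. Malat1, a nuclear long noncoding RNA, was also among the 15, at 0.305 to 0.438.

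The lower end was made up mostly of ribosomal protein genes. The 6 lowest were Rplp0, Mgst3, Tmsb4x, Rpl32, Rps2 and Rpl15, with median rho between -0.618 and -0.592. Mgst3 is a microsomal glutathione transferase and Tmsb4x an actin-binding thymosin. Of 85 ribosomal protein genes, 82 had a negative rho in each library, and 58 of the 96 genes below -0.3 in each library were of this kind (57 genes were below -0.3 after thinning). Their median was -0.458, against -0.042 over all genes. The factors that switch on secretory genes went with Muc6 only weakly: Spdef had rho = 0.0671 to 0.285 and Creb3l1 0.0704 to 0.320.

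**Figure D4:**
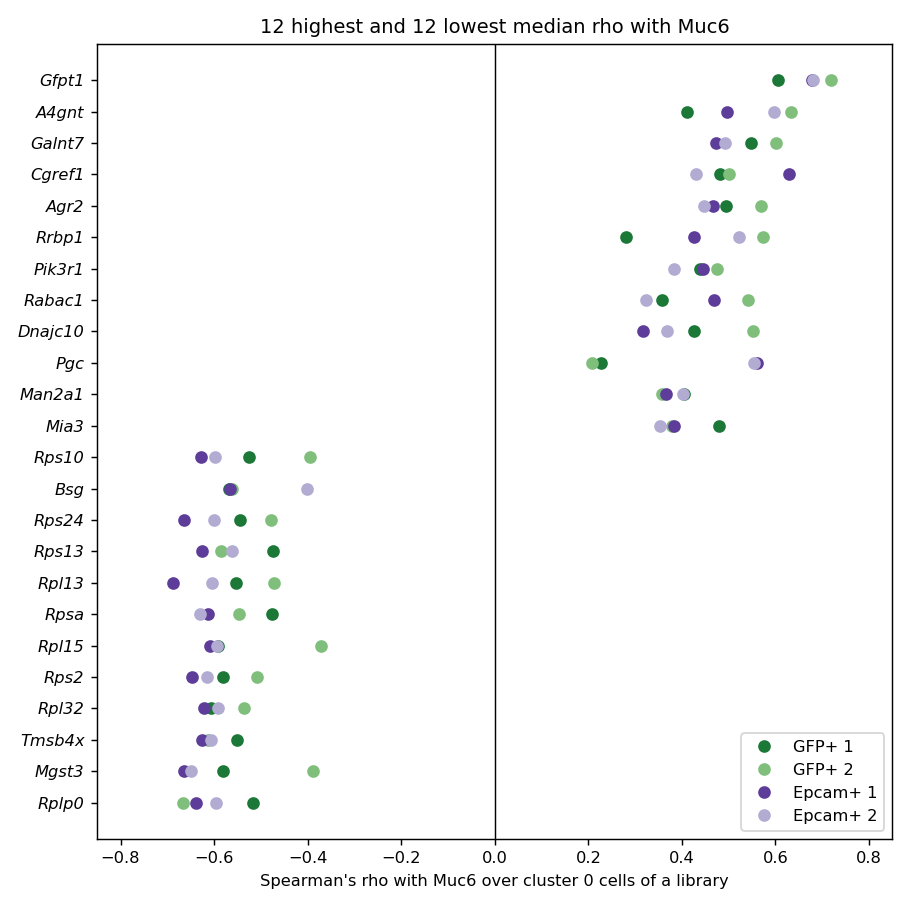
Spearman's rho with Muc6 over the neck cells of each library (1 point per library) for the 12 genes with the highest and the 12 with the lowest median. Gfpt1 is highest at 0.606 to 0.718, and most of the 12 lowest are ribosomal protein genes.

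Chief cell RNA ran through the neck cells unevenly. Cblif, the gene of gastric intrinsic factor, had no UMI in 12.1% and 16.2% of neck cells in GFP+ libraries and in 37.2% and 38.9% in Epcam+ libraries, while its 90th percentile was 5574 and 5271 CPM in GFP+ libraries and 2995 and 2813 CPM in Epcam+ libraries. Neck cells with more Cblif had more Gkn3 (rho = 0.479 to 0.552) and less Tff2 (rho = -0.435 to -0.265), and rho between Cblif and Clps, the colipase gene, was 0.628 to 0.760. Muc6 was only weakly related to Cblif (0.0977 to 0.288). These genes were chosen after their values were seen. For illustration the cells were divided at 1000 CPM of Cblif, which separates a range and not a type: 25 and 13 cells in GFP+ libraries and 51 and 38 in Epcam+ libraries lay between 500 and 2000 CPM. At or above 1000 CPM were 38.8% and 32.4% of neck cells in GFP+ libraries and 19.9% and 15.3% in Epcam+ libraries. In these cells the median of Tff2 was 2358 and 226 CPM in GFP+ libraries and 4244 and 1087 CPM in Epcam+ libraries. In the cells under 1000 CPM it was 18650 and 7282 CPM in GFP+ libraries and 25210 and 6008 CPM in Epcam+ libraries. The median of Muc6 did not fall along with Tff2: it was 8808 and 5226 CPM against 7683 and 4021 CPM in the GFP+ libraries, and 5281 and 4312 CPM against 4583 and 2710 CPM in the Epcam+ libraries.

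Pit cells, which do not make colipase or intrinsic factor, give a rough background of chief RNA in these libraries. They were deeper than neck cells, with medians of 66631 and 63533 UMIs in GFP+ libraries and 39342 and 34707 in Epcam+ libraries. The neck cell medians were 34587 and 31133 UMIs in GFP+ libraries and 24843 and 21521 in Epcam+ libraries. The same number of free UMIs per cell is thus a smaller CPM in pit cells, and no correction was made for this. Clps was at 2752 and 1440 CPM in pit cells of GFP+ libraries and at 745 and 953 CPM in those of Epcam+ libraries. In neck cells it was at 13248 and 12595 CPM in GFP+ libraries and at 5828 and 6682 CPM in Epcam+ libraries. The proportion of chief genes differed from that of cluster 1. Cblif stood at 0.134 and 0.128 of Clps in neck cells of GFP+ libraries and at 0.154 and 0.122 in those of Epcam+ libraries, against 0.0105 to 0.0128 in chief cluster 1. In pit cells the ratio was 0.0308 and 0.0136 in GFP+ libraries and 0.0143 and 0.0198 in Epcam+ libraries. The ratio of Cblif to Clps was thus higher in neck cells than in pit cells and cluster 1 in each library. Among neck cells, pit cells and cluster 1, the CPM of either gene was highest in cluster 1. Chief cluster 5 had more Cblif than cluster 1, with means of 8852 ± 1537 and 4159 ± 500 CPM. In isthmus clusters 3 and 4 of the Epcam+ libraries the ratio lay between 0.0338 and 0.0611.

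The share of neck cells was compared between sorts. The paper reports that only a minority of stomach Epcam+ cells carried GFP when doxycycline was withdrawn. How many neck cells were labelled then is not known. The shares thus cannot separate keeping the label from having taken it up. It was 24.8% and 15.3% in GFP+ libraries and 26.9% and 26.2% in Epcam+ libraries. The log2 ratio of -0.40 ± 0.32 (SE) did not pass (edgeR quasi-likelihood test on cell numbers, adjusted p = 0.233 over the 10 clusters). The groups did not overlap, and the exact two-sided permutation test gave p = 0.333, the smallest that 2 against 2 libraries allow. The direction turned with the denominator. Chief cluster 1 took 31.0% and 57.9% of the GFP+ libraries and 12.2% and 15.5% of the Epcam+ libraries, and among the cells outside it neck cells were 36.0% and 36.4% in GFP+ libraries and 30.6% and 31.0% in Epcam+ libraries (log2 ratio 0.23, adjusted p = 0.0559). Without GFP+ 1 the ratio over all cells was -0.79 (adjusted p = 0.00921).

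Last, GFP+ neck cells were compared with Epcam+ neck cells. Of 11287 genes tested, 18 passed an adjusted p of 0.05 (0.159%), 10 of them higher in GFP+ libraries (0.0886%) and 8 lower (0.0709%). The 4 genes that name neck cells were not among them. The log2 fold change was 0.64 for Muc6 (edgeR, adjusted p = 0.441), -0.33 for Tff2 (adjusted p = 0.859), 0.86 for Gkn3 (adjusted p = 0.644) and 0.78 for Pga5 (adjusted p = 0.339). Within replicate 1 and within replicate 2, GFP+ was above Epcam+ for Muc6, Gkn3 and Pga5 and below it for Tff2, and the calls changed when a library was left out. Without GFP+ 2, Muc6 was at 0.94 (adjusted p = 0.0183), Gkn3 at 1.51 (adjusted p = 0.0325) and Pga5 at 0.96 (adjusted p = 0.019). Without Epcam+ 1, Pga5 was at 1.28 (adjusted p = 0.0279), and without GFP+ 1, Tff2 was at -1.46 (adjusted p = 0.00863) and Gkn3 at -0.36. Of the 26 mucin glycosylation genes tested none passed in edgeR or DESeq2 and 2 had an unadjusted p under 0.05 (11.4% of all genes), with a median log2 fold change of -0.04 beside 0.01 over all genes. Of the 33 folding genes tested none passed with either tool and 6 had an unadjusted p under 0.05, with a median of 0.04.

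Of the chief cell genes, 3 were higher in GFP+ neck cells. Clps was at 14088 and 12967 TMM-scaled CPM in GFP+ libraries and at 5711 and 6268 in Epcam+ libraries, a log2 fold change of 1.18 ± 0.09 (SE, edgeR, adjusted p = 0.00604). Cblif was at 1891 and 1655 in GFP+ libraries and at 882 and 763 in Epcam+ libraries (log2 fold change 1.11, adjusted p = 0.0135). Pla2g1b, a secreted phospholipase, rose by 0.83 on the log2 scale (adjusted p = 0.0143). Without Epcam+ 2 the adjusted p was 0.0165 for Clps, 0.0824 for Cblif and 0.166 for Pla2g1b, and without Epcam+ 1 it was 0.0554 for Pla2g1b. Of the 13 chief genes tested 3 rose and none fell, with a median of 0.64. The summed level of the 17 chief genes in the files, 3 of them at 0 in neck cells, was 218000 and 195600 CPM in GFP+ libraries and 149000 and 132300 CPM in Epcam+ libraries. Chief cells were also more frequent in the GFP+ libraries, and Clps in pit cells moved the same way. The effect on Clps in neck cells minus that in pit cells was -0.16 ± 0.23 (adjusted p = 0.829), and for Cblif it was -0.77 ± 0.46 (adjusted p = 0.566). The part of free chief RNA in these rises was not tested.

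All 8 genes that fell were higher in pit cells than in neck cells, in each library of either, between 104 to 116 CPM for Teddm3 and 24830 to 53320 CPM for Gkn1 in pit cells. Lgals2, a galectin, was at 118 and 123 TMM-scaled CPM in GFP+ libraries and at 288 and 330 in Epcam+ libraries, a log2 fold change of -1.36 ± 0.11 (adjusted p = 0.00604). The transferase gene Mgst3 fell by 1.16 (adjusted p = 0.0335) and the cathepsin E gene Ctse by 0.85 (adjusted p = 0.0491). Gkn1, at 22.6 and 16.9 in GFP+ libraries and 54.4 and 73.1 in Epcam+ libraries, fell by 1.65 (adjusted p = 0.0335). Of the 13 pit genes tested, 2 fell, none rose and none had a positive value, with a median of -0.43. The summed level of the 19 pit genes in the files, 2 of them at 0 in neck cells, was 2727 and 2599 CPM in GFP+ libraries and 3603 and 3952 CPM in Epcam+ libraries. Pit cells made up 8.99% and 6.08% of the GFP+ libraries and 22.1% and 23.8% of the Epcam+ libraries. Within pit cells Lgals2 went the other way, at 4599 and 4708 CPM in GFP+ libraries and at 3720 and 3635 CPM in Epcam+ libraries, and the effect in neck cells minus that in pit cells was -1.79 ± 0.15 (adjusted p = 0.00138). The part of pit RNA in these falls was not tested. Nqo1, Teddm3, Gsdma2 and Sult1b1 also fell, by between 1.12 (Gsdma2) and 1.71 (Sult1b1) on the log2 scale, from at most 71.0 TMM-scaled CPM in any library.

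Among the other genes that were higher were Lars2, AY036118, Rnaset2b, Depp1, Smoc2 and Cldn23. Lars2, the mitochondrial leucyl-tRNA synthetase gene, was at 849 and 956 TMM-scaled CPM in GFP+ libraries and at 521 and 461 in Epcam+ libraries (log2 fold change 0.88, adjusted p = 0.0318). AY036118 and Gm42418, transcripts that overlap ribosomal RNA, moved with it: AY036118 was at 1938 and 2007 in GFP+ libraries and at 1244 and 1260 in Epcam+ libraries (adjusted p = 0.0335), and Gm42418 at 21967 and 21182 in GFP+ libraries and at 15029 and 12375 in Epcam+ libraries (log2 fold change 0.65, adjusted p = 0.0941). Their part in the rise of Lars2 was not tested, and Gm42418 is named after its values were seen. Smoc2, a matricellular protein and marker of stem cells, was at 16.1 and 15.3 in GFP+ libraries and at 4.56 and 5.19 in Epcam+ libraries (log2 fold change 1.69, adjusted p = 0.0335). Of the list of Wnt feedback and reserve markers, 1 of 17 genes tested rose, and all 17 had positive values with a median of 0.61, where 51.4% of all genes tested were positive. Its most abundant member, the cell cycle inhibitor gene Cdkn1c, was at 1.08 on the log2 scale (adjusted p = 0.206). Of the 19 integrated stress response targets of Atf4 tested none passed in edgeR or DESeq2, 11 had an unadjusted p under 0.05 (11.4% of all genes) and all 19 were positive, with a median of 0.35. Of the 18 heat shock genes tested none passed in edgeR and 1 in DESeq2, 3 had an unadjusted p under 0.05 and 16 were positive, with a median of 0.33. Depp1, Smoc2, Cldn23, Gsdma2, Nqo1, Teddm3, Gkn1 and Sult1b1 had a mean under 50 CPM and are named after their values were seen.

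**Figure D5:**
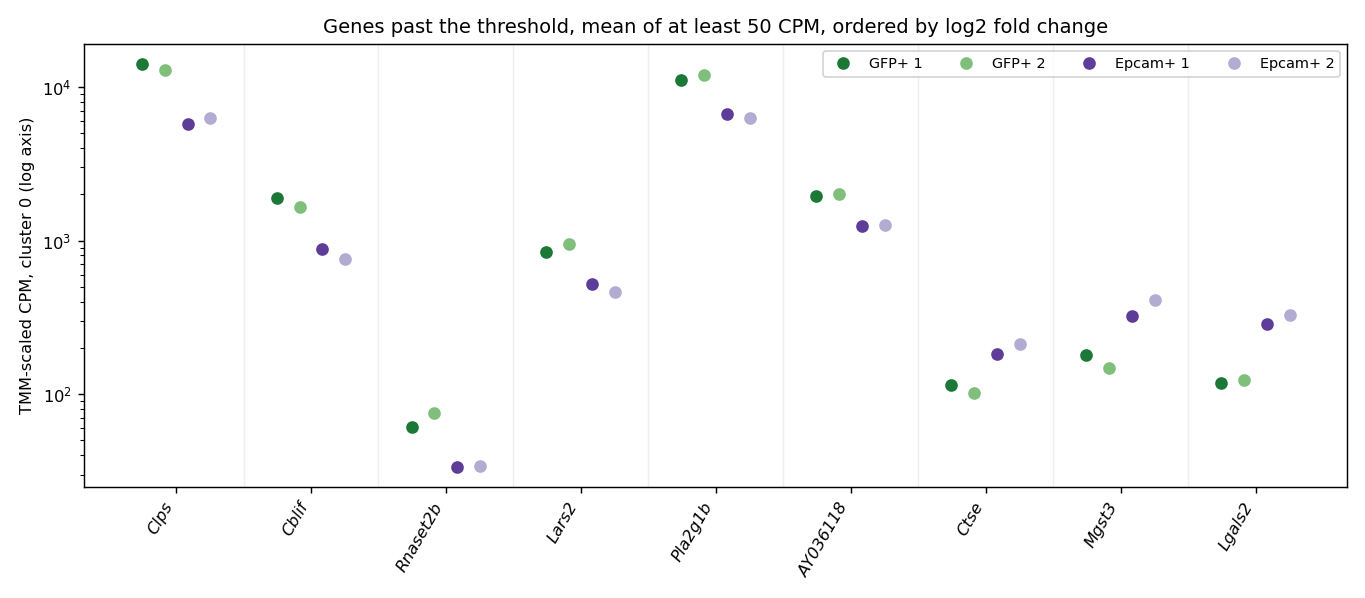
The 9 genes past the threshold between GFP+ and Epcam+ neck cells that had a mean of at least 50 CPM, ordered by log2 fold change, with 1 point per library on a log axis of TMM-scaled CPM. The GFP+ points lie above the Epcam+ points for the 6 genes on the left and below them for the 3 on the right.

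The number of calls changed with the libraries used. It was 275 without GFP+ 1, 120 without GFP+ 2, 21 without Epcam+ 1 and 7 without Epcam+ 2. Without Epcam+ 2, Lars2 (adjusted p = 0.284), Mgst3 (adjusted p = 0.127) and Ctse (adjusted p = 0.402) did not pass, and Lgals2 did (adjusted p = 0.021). Without TMM factors 15 genes passed, 4 higher and 11 lower.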

How the data were processed

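Single-cell RNA-seq libraries were made from 2 GFP+ and 2 Epcam+ (labelled Ep+) sorts. Raw counts were made by the authors in Cell Ranger 3.0.2 (build mm10), who dropped cells with over 15% mitochondrial counts, over 8000 or under 1500 genes, or any Ptprc or Pecam1 count. They deposited raw counts for 17712 genes (21 without a count), with the cluster and library of each cell. Library totals were 35571141 and 47222033 UMIs (GFP+) and 73876885 and 79455225 UMIs (Epcam+). Counts were summed per library and cluster. Sums of under 20 cells were not used for cluster levels, except that cluster 9 was 1 sum over libraries. GFP+ and Epcam+ sums were compared with edgeR 4.0.16 (R 4.3.3; TMM, filterByExpr, quasi-likelihood test, two-sided, Benjamini-Hochberg at 0.05). Differences in effect between clusters were tested by an interaction term, libraries being blocks. DESeq2 1.42.0 was an alternative. Simulated data with known changes were used to test the scripts. Scrublet (scanpy 1.11.5) marked doublets, which were kept. The named genes were the 24 with the highest ratio to the next cluster among those above every other cluster, and between sorts up to 10 in each direction with a mean of at least 50 CPM, beside the 4 label genes, the 4 most abundant members of each list and the 6 highest and lowest rho. Any others were chosen after their values were seen, and 1 called gene is not reported here. Promoters came from RefSeq (GRCm38.p6). Members and gene lists were chosen with earlier results of these data known.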

Additional observations from a re-analysis of the deposited data

Results flagged for a closer look

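For 9 genes the effect of the sort (GFP+ over Epcam+, log2) differed between neck cells and chief cluster 1, by an edgeR interaction test in which 14 of 12340 genes passed (0.113%). Chief and neck genes were among them. The effect in neck cells minus that in cluster 1 was 1.96 for Pga5 (adjusted p = 1.2e-05), 1.498 for Muc6 (adjusted p = 0.0124), 1.20 for Clps (adjusted p = 4.69e-07), 1.20 for Cblif (adjusted p = 0.000686), 0.81 for Pla2g1b (adjusted p = 8.53e-07) and 0.42 for Pgc (adjusted p = 0.004). Muc6 in cluster 1 was at 4.998 and 2.90 CPM in GFP+ libraries and at 12.3 and 3.58 CPM in Epcam+ libraries, and Pga5 at 2.25 and 2.11 CPM in GFP+ libraries and at 7.04 and 3.48 CPM in Epcam+ libraries. Both differences thus rest in part on very low values in cluster 1, and neither gene passed between sorts within neck cells. The part of free neck RNA in the cluster 1 values was not tested. The cell cycle inhibitor gene Cdkn1c had a difference of 0.99 (adjusted p = 0.00845). It was at 168 and 143 CPM in neck cells of GFP+ libraries and at 100 and 59.9 CPM in those of Epcam+ libraries. In cluster 1 Cdkn1c was at 259 and 253 CPM in GFP+ libraries and at 265.5 and 217 CPM in Epcam+ libraries. Clps in cluster 1 was at 352500 and 363200 CPM (GFP+) and at 369300 and 378800 CPM (Epcam+). Pla2g1b there was at 254500 and 264900 CPM (GFP+) and at 263000 and 264700 CPM (Epcam+). Pgc there was at 217800 and 197500 CPM (GFP+) and at 192200 and 173300 CPM (Epcam+).

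The endocrine genes Chga and Ghrl had differences of -2.25 (adjusted p = 0.000686) and -1.54 (adjusted p = 0.00215). In cluster 1 Chga was at 33.8 and 14.5 CPM in GFP+ libraries and at 4.06 and 5.997 CPM in Epcam+ libraries. In neck cells it was at 15.7 and 3.97 CPM in GFP+ libraries and at 10.98 and 10.7 CPM in Epcam+ libraries. The part of free endocrine RNA in these values was not tested.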

How the results depend on the processing

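Between GFP+ and Epcam+ neck cells, DESeq2 called 38 genes (21 higher, 17 lower), 14 of them among the 18 called by edgeR. The replicate number as a block gave 665 calls (355 higher, 310 lower), all 18 included, and all 4 label genes passed in that fit, with Muc6 at 0.65. The replicate numbers share no stated origin, and replicate 1 libraries deviated together with a correlation of 0.233 over 11287 genes. Leaving out 1 library gave 7 to 275 calls. Without TMM factors 15 genes passed, of which 26.7% were higher, against 55.6% with them. With 1 library left out, Tff2 ranged between -1.46 (without GFP+ 1) and 0.44 (without Epcam+ 1), being 0.29 without GFP+ 2, and Gkn3 between -0.36 (without GFP+ 1) and 1.95. The count of genes with a different effect, 14 against cluster 1, was 75 against cluster 2, 3 against cluster 5, 69 without a filter, 8 without Clps, Pla2g1b and Pgc, and 10 to 40 with 1 library left out. Against cluster 2 the difference was -0.47 for Pla2g1b, 0.42 for Ghrl, 0.95 for Chga, -0.16 for Clps and -0.77 for Cblif, and against cluster 5 it was 1.86 for Chga. The log2 ratio of the neck cell share was 0.23 without cluster 1 in the denominator, -0.43 with the block and -0.79 to -0.0935 with 1 library left out.

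The 52 genes above every other cluster became 135 on unscaled CPM alone, 75 on TMM-scaled CPM alone, 70 and 34 with minima of 20 and 100 CPM, 44 with sums of at least 10 cells, 96 in the Epcam+ libraries alone, 78 without cluster 5, 48 without doublets (44 shared), and 60 to 71 with 1 library left out. Thinning to 8440 UMIs gave Mki67 or Top2a in 7.11% and Aqp5 in 63.2% of neck cells, and no thinning gave 13.6% for Mki67 or Top2a and 9.41% for Lgr5. In cells thinned to 16880 UMIs, an alternative chosen after seeing the data, 8 genes had rho with Muc6 over 0.3 and 57 under -0.3 in each library. The causes were not tested.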
